A study of Mus musculus with 14 samples.

Results

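The comparison described here set the newborn spinal column of Taf9b knockout (KO) mice against that of wild type (WT) mice, gene by gene. It asked how the expression of neuronal and other genes stood in whole spinal column tissue that lacks TAF9B. Of 23152 RefSeq loci in the deposited table, 14249 were taken, those whose value passed 1 FPKM in WT, in KO or in both. FPKM is the count of sequenced fragments scaled by transcript length in kilobases and by the size of the library. The 13 loci that Cuffdiff, the program that computed the FPKM values, marked as too deeply covered to estimate were left out, among them the muscle genes Acta1, Ckm, Myh8, Myl1 and Mylpf.

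The study followed TAF9B in mouse embryonic stem (ES) cells, in embryoid bodies (EB, cell aggregates) differentiated toward motor neurons, and in newborn spinal tissue. Both spinal column libraries came from C57BL/6 newborns, the WT library from wild type animals and the KO library from animals with the genotype TAF9B -/-. Taf9b is on the X chromosome, and in the KO allele, made in an ES cell clone of the Knock-Out Mouse Project, a LacZ-Neo cassette stands in place of every protein-coding exon. The clone was injected into albino C57BL/6J-Tyr c-2J hosts and the line was backcrossed to WT C57BL/6 mice, so the KO line goes back to a single targeted clone (Taf9b_BG10 in the labels). The study describes whole lumbar spinal column dissected from newborn littermates, and the number of animals behind each library was not stated. There was 1 library per genotype, so no difference below has a replicate check and no test of genotype could be made. The depth of the libraries is unknown, since the table gives FPKM and no read counts.

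TAF9B is a TBP-associated factor and a close paralog of TAF9, a histone-fold subunit of both TFIID, the general factor that recognizes core promoters, and the SAGA coactivator, which acetylates histones. The newborn lumbar column is a mixed tissue that holds the spinal cord with its motor neurons, interneurons and glia, the dorsal root ganglia with sensory neurons and Schwann cells, and the surrounding vertebral bone, cartilage, marrow and muscle. Neurons are recognized by a shared program of cytoskeletal, adhesion, synaptic and channel genes. Many of these genes have long transcripts. In whole tissue, fewer cells of a type and less RNA per cell cannot be told apart.

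Neuronal and epidermal genes had medians on opposite sides of 0 in this comparison. The 250 bases before the RefSeq start site are shown for 3 neuronal genes whose FPKM was lower in the KO library (Map1b, Tubb3 and Isl2) and for 3 epidermal genes whose FPKM was higher (Krt10, Krtdap and Lgals7), so that their base composition can be compared directly. The 6 are genes named below that have a single entry in the RefSeq promoter table, and each sequence was placed on the mouse build of the files (mm9, NCBIM37) by an exact match. Capitals mark matches on either strand to short promoter motifs. The TATA box was searched as TATAAA. The GC box, a binding motif of Sp1 family factors, was searched as GGGCGG. The box bound by NF-Y was searched as CCAAT. The AP-1 motif was searched as TGANTCA, where N is any base.
Map1b, chr13:100286558-100286807, minus strand: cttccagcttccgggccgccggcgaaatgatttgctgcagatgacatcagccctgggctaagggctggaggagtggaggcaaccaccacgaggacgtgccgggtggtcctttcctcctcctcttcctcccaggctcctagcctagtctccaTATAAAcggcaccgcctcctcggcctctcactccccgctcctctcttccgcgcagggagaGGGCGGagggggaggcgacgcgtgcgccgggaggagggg
Tubb3, chr8:125935203-125935452, plus strand: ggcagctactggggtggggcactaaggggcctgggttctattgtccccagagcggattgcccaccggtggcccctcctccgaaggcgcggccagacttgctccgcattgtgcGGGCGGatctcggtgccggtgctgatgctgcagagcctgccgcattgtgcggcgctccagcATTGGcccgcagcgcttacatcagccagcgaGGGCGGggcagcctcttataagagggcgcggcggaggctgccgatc
Isl2, chr9:55388706-55388955, plus strand: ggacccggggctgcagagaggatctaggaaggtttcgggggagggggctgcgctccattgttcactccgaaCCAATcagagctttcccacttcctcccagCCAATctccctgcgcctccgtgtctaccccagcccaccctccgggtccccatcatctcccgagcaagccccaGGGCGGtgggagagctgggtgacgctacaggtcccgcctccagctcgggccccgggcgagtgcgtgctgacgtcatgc
Krt10, chr11:99250679-99250928, minus strand: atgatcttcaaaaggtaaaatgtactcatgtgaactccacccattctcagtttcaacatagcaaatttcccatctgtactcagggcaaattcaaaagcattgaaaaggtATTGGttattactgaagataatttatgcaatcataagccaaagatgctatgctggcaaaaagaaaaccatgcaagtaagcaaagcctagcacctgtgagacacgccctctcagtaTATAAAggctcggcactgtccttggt
Krtdap, chr7:31572674-31572923, plus strand: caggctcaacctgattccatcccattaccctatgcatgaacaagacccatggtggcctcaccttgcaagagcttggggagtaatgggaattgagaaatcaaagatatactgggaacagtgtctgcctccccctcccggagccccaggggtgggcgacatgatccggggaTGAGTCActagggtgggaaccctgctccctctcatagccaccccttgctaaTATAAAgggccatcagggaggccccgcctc
Lgals7, chr7:29649155-29649404, plus strand: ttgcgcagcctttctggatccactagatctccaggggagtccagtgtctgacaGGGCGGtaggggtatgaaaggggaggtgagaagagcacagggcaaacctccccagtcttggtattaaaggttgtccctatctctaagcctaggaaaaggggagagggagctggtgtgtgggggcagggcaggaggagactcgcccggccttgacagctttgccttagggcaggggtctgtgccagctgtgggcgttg

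The Map1b, Tubb3 and Isl2 windows held 19, 21 and 16 CpG dinucleotides, and those of Krt10, Krtdap and Lgals7 held 2, 4 and 5. Over the 171 RefSeq promoters of 124 genes of the neuronal lists the median was 12 CpG, over the 23 promoters of 19 epidermis genes it was 4. It was 15 over the 14199 promoters of genes above 1 FPKM in at least 1 column library, and 6 over all 32851 promoters of the table. TATAAA was found in 12.9% of the neuronal promoters, 17.4% of the epidermis promoters, 6.99% of those of genes above 1 FPKM and 12.4% of all. GGGCGG was found in 48.5%, 21.7%, 56.2% and 32.7%, and CCAAT in 26.9%, 17.4%, 34.7% and 33.8%. TGANTCA was found in 3.51% of the neuronal promoters (6), 34.8% of the epidermis promoters (8), 4.77% of those of genes above 1 FPKM and 6.75% of all. The neuronal promoters thus held more CpG and GGGCGG than all promoters but less than those of genes above 1 FPKM, and the differences were not tested. TAF9B peaks in EB-derived motor neurons, called by the authors from 1 library, covered 227 of the 250 bases shown for Map1b and all 250 bases shown for Tubb3, and the centers of the nearest peaks to Isl2, Krt10, Krtdap and Lgals7 lay 28906, 257131, 58354 and 29443 bp from the start site.

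Taf9b itself (chrX, mm9) was listed at 6.65 FPKM in the WT library and 3.31 FPKM in the KO library, a log2 ratio of KO over WT of -1.01. The gene's FPKM was not split into coding exons and other sequence of the locus, so it is not a clean measure of the deletion. Its paralog Taf9 was at 56.2 and 89.2 FPKM, a log2 ratio of 0.67 that lay 0.02 from the value for its transcript length (below). The Y-linked genes Ddx3y (10.7 and 12.7 FPKM), Eif2s3y (15.7 and 23), Uty (2.26 and 2.70) and Kdm5d (2.75 and 2.71) were present in both libraries, and Xist, the RNA of the inactive X, was below 1 FPKM in both. Of the 19 other loci within 2 Mb of Taf9b, the median log2 ratio was 0.24, and over all 480 loci of the X chromosome it was -0.03 against 0.06 over 13765 autosomal loci.

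Over the 14249 loci the median log2 ratio was 0.06, with the quartiles at -0.43 and 0.52. Past 2-fold, 1212 loci (8.51%) were lower and 1289 loci (9.05%) were higher in the KO library. Past 4-fold, 126 were lower and 339 higher, and past 16-fold, leaving out loci listed at 0 in a library, 2 were lower and 124 higher. A further 77 loci were listed at 0 in the WT library only, and 50 in the KO library only. The FPKM of the 14249 loci summed to 496427 in WT and 759307 in KO.

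**Figure D1:**
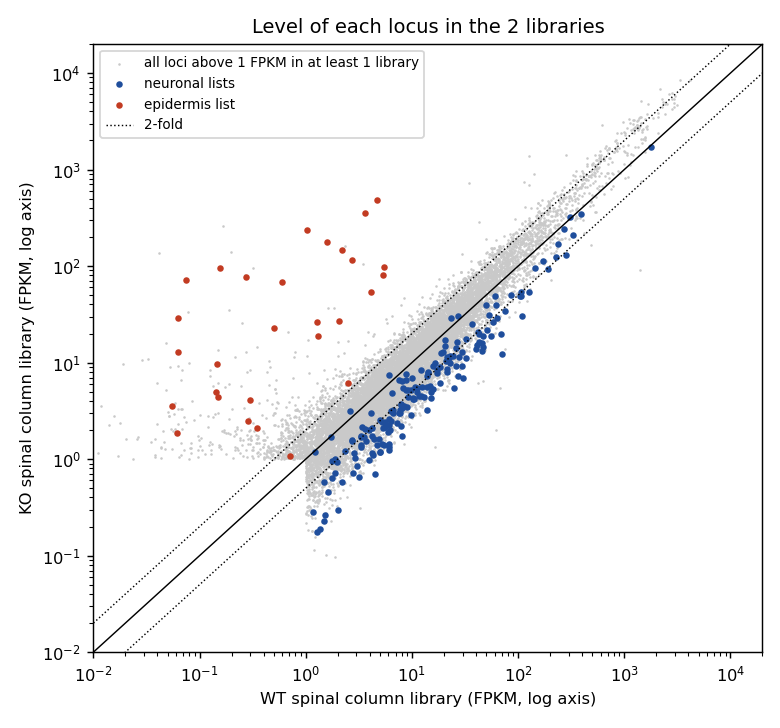
FPKM of each locus in the WT (x axis) and KO (y axis) spinal column libraries, both on log axes, with the neuronal lists in blue and the epidermis list in red; the solid line marks equal values and the dotted lines 2-fold, and loci under 0.01 FPKM in a library are not drawn. Of 177 neuronal genes 117 lie below the lower dotted line and none above the upper, while 32 of 33 epidermis genes are higher past 2-fold.

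The ratio fell with transcript length. Transcript lengths were available for 14041 of the loci. With the loci divided into 10 classes of equal size by length, the class with the shortest transcripts (up to 1034 bases) had a median log2 ratio of 0.82, and 36.7% of its loci were higher and 4.90% lower past 2-fold. In the class with the longest transcripts (5997 bases and more) the median was -0.76, and 0.57% were higher and 32.4% lower. The medians of the classes between them stepped down in order from 0.55 to -0.39. Across loci, Spearman's rho of the ratio with length was -0.58, and over 11283 loci of the same set in the EB libraries of day 6 the rho of their KO over WT ratio with length was 0.08. Loci lower past 2-fold had a median transcript of 4812 bases and those higher 1197 bases, against 2763 bases over all. The cause of this trend was not tested.

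Beside the value as measured, the median of each list and many single genes are therefore also given as the distance from the ratio at their transcript length, which was read from a local regression across all loci and is called the length-adjusted log2 ratio. After this adjustment 835 loci (5.95% of 14041) were lower and 658 (4.69%) higher past 2-fold, of which 585 and 556 were also past 2-fold as measured. A list of 38 very long transcripts of many tissues (the dynein heavy chain Dync1h1, the ubiquitin ligase Huwe1, the perlecan gene Hspg2 and the like) shows the size of the trend, with a median of -1.34 as measured and -0.11 after it. The adjustment is uncertain for such transcripts, since against the median of their own length class the list stood at -0.60.

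**Figure D2:**
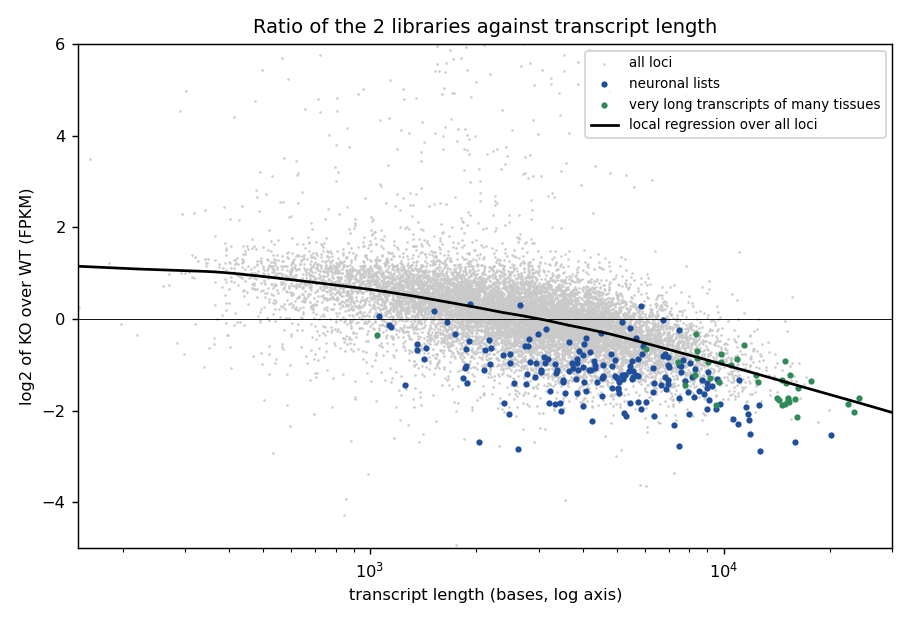
Log2 ratio of KO over WT FPKM (y axis) against transcript length in bases (x axis, log scale) for all loci (gray), the neuronal lists (blue) and very long transcripts of many tissues (green), with the local regression over all loci as a black line; loci outside -5 to 6 or beyond the limits of the x axis are not drawn. The green points lie around the line (median distance -0.11, or -0.60 from the median of their length class) and the blue points mostly below it (median distance -0.87).

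Neuronal genes were lower in the KO library as a group. The 10 neuronal lists hold 182 genes, of which 177 passed the filter on low values. Of these 177, 117 (66.1%, against 8.51% of all loci) were lower past 2-fold and 0 were higher, and 172 had a ratio below 0. Among the 158 above 1 FPKM in both libraries 100 were lower past 2-fold, against 6.6% of all such loci. The median log2 ratio of the 177 was -1.20. At 4567 bases the median neuronal transcript was long, and the length-adjusted median was -0.87, with 65 of 177 lower past 2-fold (36.7%, against 5.95% of all loci) and 169 below the trend.

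The difference was present at each transcript length with neuronal members. In the next to shortest class (1035 to 1495 bases) the median log2 ratio of 8 neuronal genes was -0.58 against 0.55 over the other loci. In the class from 2326 to 2763 bases it was -0.97 for 9 genes against 0.12. In the longest class it was -1.49 for 54 genes against -0.74. The 33 neuronal genes with transcripts below the median length had a median of -0.67 as measured, and 31 of them lay below the trend.

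**Figure D3:**
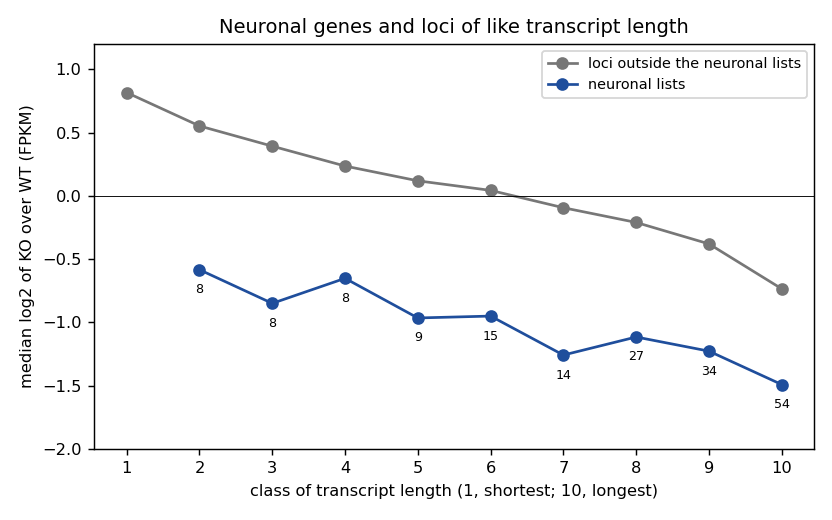
Median log2 ratio of KO over WT FPKM (y axis) in each of 10 classes of transcript length (x axis, shortest to longest) for the neuronal lists (blue, number of genes beside each point) and all other loci (gray). Both lines fall with length, from -0.58 to -1.49 and from 0.82 to -0.74, and the blue line lies below the gray line in each of the 9 classes that hold neuronal genes.

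The intermediate filament genes of axons were lower without exception, with a median log2 ratio of -1.57 (length-adjusted -1.52). Past 2-fold 5 of 5 were lower, against 8.51% of all loci, and each was above 1 FPKM in both libraries. Nefm, the medium neurofilament chain, was at 110 FPKM in WT and 30.0 FPKM in KO, a log2 ratio of -1.87. Nefh, the heavy chain, was at 27.0 and 7.22 FPKM (-1.90), and Nefl, the light chain, at 280 and 130 FPKM (-1.11). Prph, the peripherin of peripheral and motor axons, was at 193 and 94.0 FPKM, the smallest fall of the list at -1.03.

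Among 21 microtubule proteins and axonal motors 13 were lower past 2-fold, against 8.51% of all loci (median -1.12, length-adjusted -0.88). The 21 were above 1 FPKM in both libraries. Map1b, a microtubule-associated protein of growing axons, was at 70.1 FPKM in WT and 12.3 in KO, 5.70-fold lower, a log2 ratio of -2.51 of which -1.35 was left after length. Its relative Map1a was at 24.9 and 5.43 FPKM (-2.20), and the kinesin Kif5a, a motor of axonal transport, at 45.6 and 13.1 FPKM (-1.80). As measured, the tubulin genes Tubb3 and Tuba1a differed less than the list median. After length this held for Tuba1a but not for Tubb3. Tubb3, the neuronal beta-tubulin, was at 331 and 208 FPKM (-0.67, length-adjusted -0.96), and Tuba1a, the most abundant gene of the lists, at 1782 and 1693 FPKM (-0.07, length-adjusted -0.45). Stmn1, a tubulin-binding protein also made by dividing cells, was the highest of the list at 0.07 (length-adjusted -0.55).

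Of 19 adhesion genes of the L1 family and its partners 18 were lower past 2-fold, against 8.51% of all loci (median -1.36, length-adjusted -0.89), and above 1 FPKM in both libraries 17 of 18 were. L1cam, which guides and bundles axons, was at 30.2 FPKM in WT and 6.91 in KO (-2.13, length-adjusted -1.71). Ncam1, the most abundant, was at 57.9 and 26.5 FPKM (-1.13). Cdh2, the N-cadherin of neural and other tissues, was at 17.1 and 8.41 FPKM (-1.02), and Cntnap2, a partner of potassium channels on axons, changed least (9.24 and 5.21 FPKM, -0.83).

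Axon guidance genes had the weakest shift of the neuronal lists once length was considered. Of 29 measured, 18 were lower past 2-fold, against 8.51% of all loci, with a median of -1.22 as measured and -0.60 after length. Above 1 FPKM in both libraries 15 of 25 were lower, against 6.6% of such loci, with a median of -1.16. Celsr2, an atypical cadherin, was at 6.08 FPKM in WT and 1.35 in KO (-2.17, length-adjusted -1.12). The most abundant, the ephrin Efnb3, was at 26.1 and 14.2 FPKM (-0.88), and the netrin receptor Unc5b, which blood vessels also carry, was higher at 2.60 and 3.18 FPKM (0.29).

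All 24 synaptic vesicle and release genes had a ratio below 0, 14 of them past 2-fold, against 8.51% of all loci (median -1.16, length-adjusted -0.93). Above 1 FPKM in both libraries 11 of 21 were lower past 2-fold, against 6.6% of such loci, with a median of -1.07. Bsn, the active zone scaffold bassoon, was at 4.48 FPKM in WT and 0.698 in KO (-2.68, length-adjusted -1.24) and passed the filter only through WT. Syn1, the vesicle protein synapsin, was at 69.7 and 19.6 FPKM (-1.83, length-adjusted -1.79). Vamp2, the most abundant, was at 173 and 112 FPKM (-0.63), and Stx1a changed least (20.5 and 14.9 FPKM, -0.46).

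Channels, receptors and transmitter enzymes showed a like pattern. Of 23 voltage-gated channel genes 18 were lower past 2-fold (median -1.34, length-adjusted -0.97), of 23 receptor subunits 14 (-1.01 and -0.71), and of 11 transmitter enzymes and transporters 6 (-1.0 and -0.76), against 8.51% of all loci. Above 1 FPKM in both libraries 12 of 17 channel genes (median -1.26), 11 of 19 receptor subunits (-1.01) and 6 of 11 enzymes and transporters were lower, against 6.6% of such loci. Cacna1e, an R-type calcium channel, had the lowest ratio of all neuronal genes at 1.28 and 0.174 FPKM (-2.88) and passed the filter only through WT, and Cacna1b, the N-type channel of presynaptic terminals, was at 6.10 and 1.24 FPKM (-2.30). The glycine receptor subunit Glra1 was at 1.48 and 0.229 FPKM (-2.69) and also passed only through WT, and Slc6a5, the glycine transporter of inhibitory interneurons, at 4.99 and 1.19 FPKM (-2.07, length-adjusted -2.18 on a short transcript). The receptor subunit Gabra5 (6.08 and 7.47 FPKM) and the amine-synthesis enzyme Ddc (23.1 and 28.8 FPKM) were the highest of their lists, with log2 ratios of 0.30 and 0.32.

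The neuronal RNA-binding and splicing factors were lower in 15 of 15 cases, 10 of them past 2-fold, against 8.51% of all loci (median -1.07, length-adjusted -0.91). Above 1 FPKM in both libraries 9 of 14 were lower past 2-fold, against 6.6% of such loci, with a median of -1.06. Srrm4, the splicing factor of neuronal microexons, was at 2.02 FPKM in WT and 0.297 in KO (-2.77, length-adjusted -2.04) and passed the filter only through WT. Rbfox1 was the most abundant at 32.3 and 17.5 FPKM (-0.88), and Celf3 changed least (8.27 and 5.52 FPKM, -0.58). The 22 pan-neuronal genes were above 1 FPKM in both libraries and had ratios below 0. Of these 10 were lower past 2-fold, against 6.6% of such loci (median -0.96, length-adjusted -0.91). They ran from Syn1, the lowest, to Stmn3 at 268 and 244 FPKM (-0.14, length-adjusted -0.72). Uchl1, the most abundant of them, was at 388 and 343 FPKM (-0.18, length-adjusted -0.75).

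**Figure D4:**
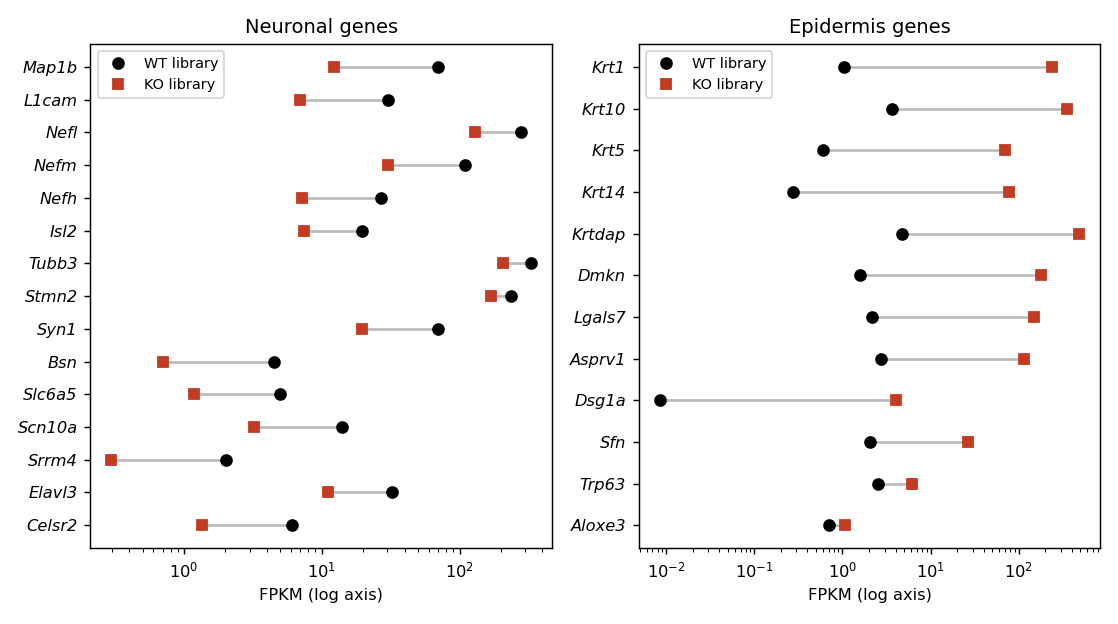
FPKM (x axis, log scale) of 15 neuronal genes (left) and 12 epidermis genes (right) in the WT (circles) and KO (squares) libraries, with 1 library each; the genes were picked after their values were seen. Each neuronal gene shown is lower in KO, from Map1b (70.1 to 12.3) to Stmn2 (236 to 170), and each epidermis gene is higher, with Krt1 going from 1.04 to 238.

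The neuronal classes were uneven. Of 20 genes of dorsal root ganglion sensory neurons 12 were lower past 2-fold, both as measured and after length, against 8.51% and 5.95% of all loci, and the median of -1.05 was -1.20 after length. Above 1 FPKM in both libraries 11 of 18 were lower, against 6.6% of such loci. Scn10a, the sodium channel of nociceptors, was at 13.9 and 3.20 FPKM (-2.12), and Prdm12, a factor of the nociceptor lineage, at 10.1 and 2.69 FPKM (-1.91). The sensory peptides, on short transcripts, were near equal in the 2 libraries as measured, with Calca at 39.8 and 38.6 FPKM (-0.05, length-adjusted -0.69), Tac1 at 25.6 and 24.9 FPKM (-0.04, length-adjusted -0.66) and Calcb at 4.74 and 5.85 FPKM (0.30, length-adjusted -0.36). All 20 genes of the list lay below the value for their length.

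Of 18 listed motor neuron factors 12 were measured and 4 were lower past 2-fold (33.3%, against 8.51% of all loci), with a median of -0.50. After length 3 were lower, against 5.95% of all loci, and the median was -0.58. Isl2, a LIM homeodomain factor of motor and sensory neurons, was at 19.7 FPKM in WT and 7.46 in KO (-1.40, length-adjusted -1.70). Its relative Isl1 was at 7.57 and 5.12 FPKM (-0.56, length-adjusted -0.67). Lhx3, Lhx4 and Mnx1, which define motor neuron identity in the embryo, were under 1 FPKM in both libraries and are not compared.

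Spinal interneuron factors had 5 of 17 lower (29.4%, against 8.51% of all loci) and 1 higher past 2-fold (median -0.45, length-adjusted -0.43). Among the 13 above 1 FPKM in both libraries 3 were lower, against 6.6% of such loci, and 0 higher (median -0.35). Lmx1b, of dorsal excitatory interneurons, was at 3.46 and 0.720 FPKM (-2.27) and passed the filter only through WT, and Tlx3, of the same lineage and of sensory neurons, at 8.63 and 4.11 FPKM (-1.07). En1, of ventral interneurons and also of skin, was at 2.80 and 2.70 FPKM (-0.06). Lhx2, which is also a hair follicle gene, was the member that was higher (0.495 and 2.86 FPKM, 2.53) and passed the filter only through KO, and Dbx1 was under 1 FPKM in both.

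Of 14 neural progenitor factors 2 were lower past 2-fold (14.3%, against 8.51% of all loci), with a median of -0.50, and after length 5 were lower (5.95% of all loci) with a median of -0.38. Among the 10 above 1 FPKM in both libraries 1 was lower, against 6.6% of such loci, and the median was -0.33. The 3 named next were under 1 FPKM in KO and passed the filter only through WT. Nkx6-1, a ventral progenitor and motor neuron factor, was at 2.77 and 0.838 FPKM (-1.72). Nkx2-2, a factor of the most ventral neural domain, was at 1.63 and 0.992 FPKM (-0.72), and Sox1 at 1.04 and 0.563 FPKM (-0.88). Nkx6-2 was the highest of the list at 5.81 and 7.53 FPKM (0.38).

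The Notch pathway, which holds back neuronal differentiation, had a median of -0.26 over 19 genes (length-adjusted -0.14), with 2 lower past 2-fold (10.5%, near the 8.51% of all loci) and 0 after length. The receptor Notch1 was at 5.40 FPKM in WT and 2.09 in KO, a log2 ratio of -1.37 on a transcript of 9488 bases, and -0.43 after length. Its target Hes5 was at 3.65 and 3.05 FPKM (-0.26, length-adjusted -0.78). The Sonic hedgehog pathway, which patterns the ventral cord, had a median of -0.44 over 11 genes and -0.17 after length, with Gli3 the lowest at 3.09 and 1.38 FPKM (-1.17, length-adjusted -0.36).

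Glial genes had a pooled median below 0, nearer to it than that of the pooled neuronal lists. Over 41 genes of the 3 glial lists the median was -0.59 (length-adjusted -0.56), with 35 below 0 and 38 below the trend. Past 2-fold 8 were lower (19.5%, against 8.51% of all loci) and 0 higher, and after length 5 were lower (5.95% of all loci). The astrocyte list had a median of -0.70 both as measured and after length, and the latter was lower than the -0.60 of the axon guidance list. Its glutamate transporter Slc1a2 was at 10.6 and 2.99 FPKM (-1.82) and its intermediate filament Gfap at 23.5 and 15.8 FPKM (-0.58). The oligodendrocyte list had a median of -0.55 (length-adjusted -0.41), and its myelin protein Mbp was at 57.1 and 54.0 FPKM (-0.08). The Schwann cell list had a median of -0.30 (length-adjusted -0.51), with Ngfr, the low-affinity neurotrophin receptor, the lowest at 48.8 and 23.7 FPKM (-1.04).

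Genes outside the lists were sorted by tissue with 2 libraries that are not part of the column comparison, WT newborn spinal cord and WT ES cells. Of the genes outside all lists, 2443 were over 4-fold higher in cord than in ES cells. Their median log2 ratio in the column was -0.50 (length-adjusted -0.46). Past 2-fold 572 (23.4%) were lower and 102 (4.18%) higher, against 8.51% and 9.05% of all loci. The 2162 of them above 1 FPKM in both libraries had a median of -0.44. Of these 408 were lower and 71 higher, against 6.6% and 6.36% of such loci. Over the 2017 genes outside all lists that were over 4-fold higher in ES cells than in cord the median was 0.25, with 58 (2.88%) lower and 270 (13.4%) higher. With 12822 loci, list members included, in 10 classes by cord over ES cells, the class highest in cord had a median of -0.70 (length-adjusted -0.66) and 33.9% lower past 2-fold, against 0.30 and 1.87% in the class lowest in cord.

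Epidermis genes had the largest difference of any list, in the opposite direction. Of 40 listed, 33 were measured, and 32 of these were higher past 2-fold (97.0%, against 9.05% of all loci), with a median log2 ratio of 6.02 (length-adjusted 5.65). Because members near 0 in WT entered only through the KO library, the 13 above 1 FPKM in both libraries are also given, of which 13 were higher past 2-fold (6.36% of all such loci were) with a median of 4.37. The summed FPKM of the 33 was 41.8 in WT and 2393 in KO. Krt1, a keratin of the upper epidermal layers, was at 1.04 and 238 FPKM (7.85), and its partner Krt10 at 3.60 and 352 FPKM (6.61). Krt14 and Krt5, the keratin pair of basal cells, were at 0.272 and 77.3 FPKM and at 0.599 and 68.8 FPKM. Krtdap, a secreted protein of differentiating keratinocytes and the most abundant of the list, was at 4.69 and 487 FPKM (6.70). Dsc1, Flg2 and Lce1a1 were listed at 0 in WT and at 2.05, 1.46 and 146 FPKM in KO. The lowest ratio of the list was 0.60, for the lipoxygenase Aloxe3 (0.711 and 1.08 FPKM). Reads of keratin and Lce genes can be shared with near-identical copies, so single values in these families are uncertain.

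Other genes of skin that were nearly absent from WT were present in KO. Of the hair follicle list, the inner root sheath keratin Krt71 was at 0.149 and 6.08 FPKM, and 7 of 9 measured genes were higher past 2-fold, against 9.05% of all loci (median 5.18, length-adjusted 4.92). These 7 were under 1 FPKM in WT and passed the filter only through KO. The single member above 1 FPKM in both, Hoxc13, was at 5.93 and 4.15 FPKM (-0.51), and Lef1 was at 1.55 and 0.863 FPKM. Of 7 melanocyte genes 4 were higher, against 9.05% of all loci (median 1.98, length-adjusted 1.77), among them Dct, an enzyme of melanin synthesis, at 0.502 and 2.98 FPKM. These 4 also passed only through KO, and the 3 above 1 FPKM in both had a median of -0.31. Of 12 adipocyte genes 6 were higher as measured (median 0.80, 9.05% of all loci higher) and 4 after length (median 0.41, 4.69% of all loci). Of the 8 above 1 FPKM in both libraries 2 were higher, against 6.36% of such loci, with a median of 0.10. The hormone Adipoq was at 0.786 and 13 FPKM, and the most abundant gene, Car3, which muscle shares, at 865 and 962 FPKM. The share of skin RNA in each library, and its part in the lower values of neuronal genes, was not tested.

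In cartilage, bone, vessels and connective tissue the list medians lay nearer to the trend than those of the glial lists. The median log2 ratio was -0.17 over 20 cartilage genes (length-adjusted -0.12), 0.20 over 15 bone genes (-0.06), 0.19 over 9 osteoclast genes (-0.06), -0.03 over 17 endothelial genes (-0.01) and -0.29 over 18 fibroblast genes (0.11). Col2a1, the main collagen of cartilage, was at 156 and 83.6 FPKM (-0.90, length-adjusted -0.53), and Sparc, a matrix protein of bone, at 1071 and 1476 FPKM (0.46). Blood lineages had medians as measured of 0.80 over 7 erythroid, 0.70 over 16 neutrophil, 0.55 over 16 macrophage and 0.02 over 7 lymphocyte genes, and of 0.37, -0.01, 0.19 and 0.48 after length. Several members passed the filter through 1 library only, and above 1 FPKM in both the medians were 0.37 over 4 erythroid and 0.14 over 12 neutrophil genes.

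Muscle genes had a median log2 ratio of 0.21 over 24 structural genes (length-adjusted 0.11) and 0.27 over 12 muscle regulators (0.12). Of the structural genes 7 were lower and 3 higher past 2-fold as measured (29.2% and 12.5%, against 8.51% and 9.05% of all loci), and 2 and 1 after length (5.95% and 4.69% of all loci). Myh4 and Myh2, fast myosin heavy chains of maturing fibers, were at 67.9 and 5.41 FPKM (-3.65) and at 75.2 and 13.7 FPKM (-2.46), and Myh13, a myosin of the same gene cluster, was at 16.4 and 1.32 FPKM (-3.63). Their length-adjusted values were -3.12, -1.92 and -3.13, whereas Myh3, the embryonic form, chosen after its values were seen, was at 420 and 218 FPKM (-0.95, length-adjusted -0.42). The troponin Tnnc2, the most abundant gene of the list, was at 4167 and 8515 FPKM (1.03, length-adjusted 0.24), and the regulator Myog at 92.8 and 116 FPKM (0.32). Myosin genes of this cluster share sequence, and single values are uncertain.

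**Figure D5:**
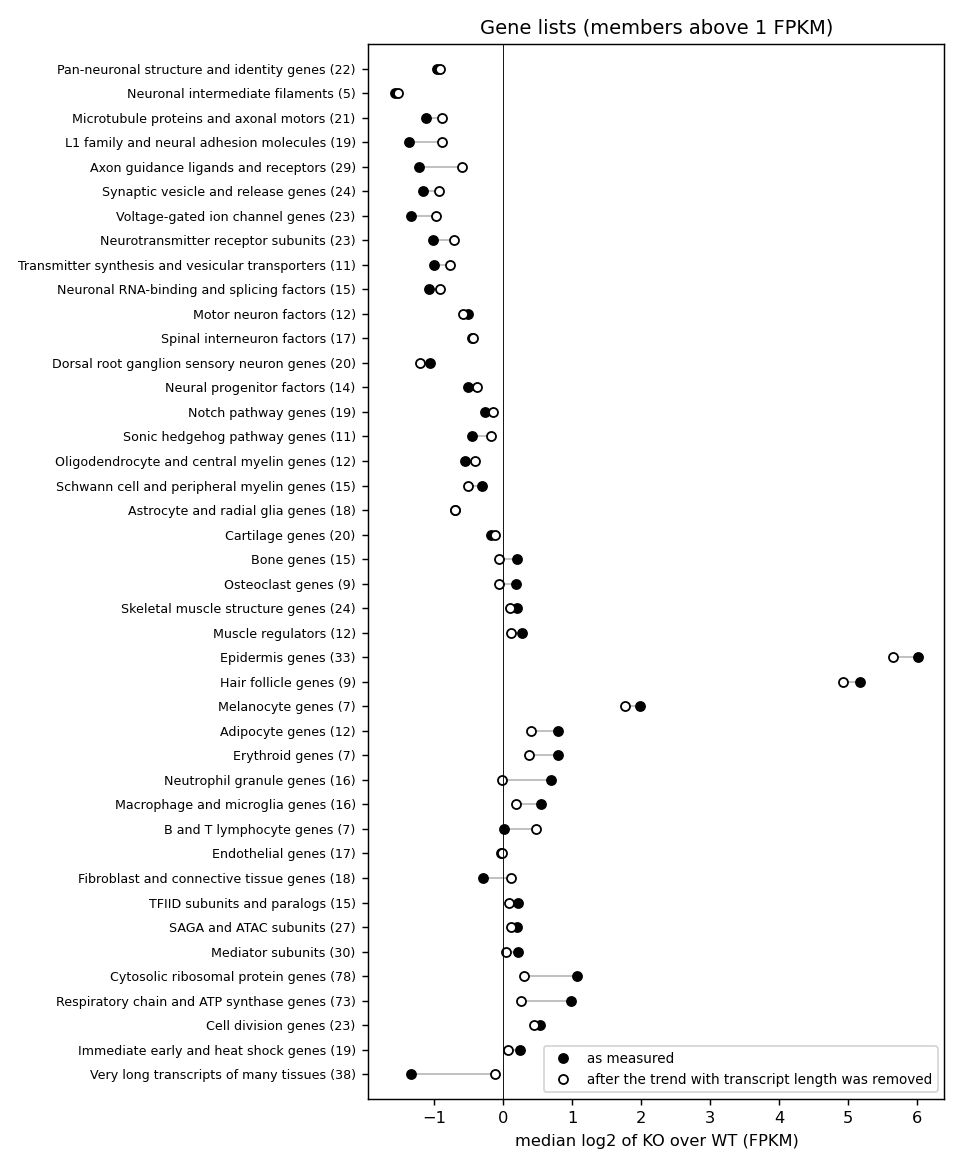
Median log2 ratio of KO over WT FPKM (x axis) for each gene list (y axis, number of measured genes in parentheses), as measured (filled) and after the trend with transcript length was removed (open). The neuronal lists lie between -0.96 and -1.57 as measured, the ribosomal list moves from 1.08 to 0.30 and the very long transcripts from -1.34 to -0.11 (-0.60 against the median of their length class), and the epidermis list lies at 6.02.

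The ribosomal and respiratory genes, whose transcripts are short, were higher as measured and closer to 0 after length. Over 78 cytosolic ribosomal protein genes, with a median transcript of 737 bases, the median log2 ratio was 1.08, and 46 (59.0%) were higher past 2-fold and 0 lower, against 9.05% higher of all loci and 36.7% of those in the class of shortest transcripts. After length the median was 0.30 and 3 were higher, against 4.69% of all loci. Rpl9 was at 845 FPKM in WT and 2376 in KO (1.49, length-adjusted 0.72). Over 73 respiratory chain and ATP synthase genes the median was 0.98 (length-adjusted 0.26). Ndufa1 was at 195 and 456 FPKM (1.22, length-adjusted 0.24), Ndufa4 at 589 and 1372 FPKM (1.22 and 0.29), Atp5j at 349 and 699 FPKM (1.0 and 0.27) and Atp5k at 1583 and 3368 FPKM (1.09 and 0.21). Gpx1, a glutathione peroxidase, was at 125 and 300 FPKM (1.26 and 0.54). Copies of ribosomal protein genes elsewhere in the genome share their reads, which makes these values uncertain.

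The transcription machinery to which TAF9B belongs was near the middle of all loci. The 15 measured TFIID genes had a median of 0.22 (length-adjusted 0.09), the 27 SAGA and ATAC genes 0.21 (0.11) and the 30 Mediator genes 0.22 (0.04). In TFIID the lowest was Taf1, the largest subunit, at 3.85 and 1.73 FPKM (-1.15, length-adjusted -0.36), followed by Taf9b. Taf9b had the lowest length-adjusted ratio of both complexes (-1.12). Cell division genes had a median of 0.53 over 23 genes (length-adjusted 0.45), with Tyms the highest at 2.58 and 6.16 FPKM (1.26), and immediate early and heat shock genes a median of 0.24 over 19 (0.07), with Nr4a1 the lowest at 42.3 and 13.7 FPKM (-1.63).

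Among single loci above 1 FPKM in both libraries the largest falls were in Eno1b, at 61.3 FPKM in WT and 2.00 in KO (-4.93), and in Ddx5. Eno1b is a retrocopy of the enolase gene Eno1, with which it shares reads, so its value is uncertain. Ddx5, an abundant RNA helicase, was at 1408 and 90.5 FPKM (-3.96, length-adjusted -3.84), whereas the EB libraries of day 6 held it at 1364 (labelled WT) and 1017 FPKM (labelled KO). Rcan3, a calcineurin regulator, was at 46.6 and 6.43 FPKM (-2.86), Cdr1 at 42.1 and 6.21 FPKM (-2.76) and Prr36 at 8.39 and 1.43 FPKM (-2.55). Cdr1 lies opposite an abundant neuronal circular RNA, and the 2 strands cannot be told apart since counting by strand was not stated.

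Falls on transcripts shorter than the median run against the trend. The lengths of single genes are uncertain, since each is that of an annotated transcript with ends nearest to the locus. Among loci above 1 FPKM in both libraries, the 5 largest were in Eno1b, Cdr1, Slc6a5, Kcnip2 and Prrt1. They include Kcnip2, a potassium channel partner (5.37 and 1.28 FPKM, -2.06, length-adjusted -2.86), and Prrt1, a synaptic membrane protein (4.11 and 1.03 FPKM, -2.0, length-adjusted -2.27). Both were also present in the spinal cord library, at 11.7 and 13.1 FPKM. With the same filter, rises on transcripts longer than the median were led by Fxyd3, an epithelial regulator of the sodium pump (1.83 and 37.0 FPKM, 4.34). They were followed at a distance by Rnf225 (1.48), the replication factor Gins2 (4.42 and 12.3 FPKM, 1.47), Prex2 (4.96 and 13.7 FPKM, 1.46, length-adjusted 2.55) and the simple epithelial keratin Krt7 (1.27 and 3.43 FPKM, 1.43).

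Among loci above 1 FPKM in both libraries the 10 largest rises were Krt1, Dmkn, Krtdap, Krt10, Ly6d, Lgals7, Asprv1, Gm6498, Cnfn and Stfa3, with log2 ratios from 7.85 down to 4.40. Dmkn, a secreted keratinocyte protein, was at 1.59 and 177 FPKM, and Asprv1, a protease of the upper epidermis, at 2.72 and 115 FPKM. Lgals7, a galectin of stratified epithelia, was at 2.18 and 148 FPKM. Stfa3, a cysteine protease inhibitor with several near copies, was at 34.3 and 727 FPKM.

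Neuronal genes with and without TAF9B peaks in EB-derived motor neurons had medians within 0.15 of each other in the column. Of 48 neuronal genes with the center of a TAF9B peak within 500 bp of the start site 28 were lower past 2-fold (58.3%, median -1.13), of 72 with the nearest peak 500 bp to 50 kb away 53 were lower (73.6%, -1.27), and of 57 with none within 50 kb 36 were lower (63.2%, -1.15). Over all loci, 5.89% of 3583 with a peak within 500 bp were lower (median 0.13), 9.12% of 5407 with the nearest peak 500 bp to 50 kb away (0.05) and 9.73% of 5047 with none within 50 kb (0.00). The start site was taken as the upstream end of the deposited locus. In wide loci this need not be the start of the gene, so some genes may be in the wrong class. The peaks come from cultured cells and the ratios from tissue.

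The EB libraries of day 6 are a pair labelled WT and KO from cultured cells, which the column comparison does not share. Of the 177 neuronal genes 109 were above 1 FPKM there, 77 were lower past 2-fold in the library labelled KO (9.9% of all 12440 loci were) and 6 were higher, with a median of -1.74. Of the 109, 52 were lower past 2-fold in both comparisons, as were 253 (2.21%) of all 11424 loci that passed the filter in both. Map1b stood at 18.2 (labelled WT) and 4.19 FPKM (labelled KO), L1cam at 5.18 and 0.553, and Nefm at 107 and 4.09. Nefh (1.38 and 1.74) and Tlx3 (1.39 and 1.72) were lower in the KO column and slightly higher in the EB library labelled KO. Taf9b itself ran against the labels of the EB pair, with 1.37 FPKM for WT and 4.01 for KO, so directions in EB are given by label. As in the column, the Taf9b value was not split into coding exons and other sequence of the locus. In the same pair the neuronal genes Tubb3 (561 and 41.3 FPKM) and Isl1 (11.0 and 0.549 FPKM) were lower in the library labelled KO. The length trend was small in that pair, with class medians between -0.15 and 0.06.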

How the data were processed

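Newborn spinal column RNA was measured in 1 WT and 1 TAF9B KO library. According to the methods, the authors made poly-A libraries, mapped reads to RefSeq genes with TopHat (mm9) and deposited FPKM values from Cuffdiff, separately for each pair of libraries; versions are not given in the sources used here. The deposited peak lists hold a MACS score per peak from 1 TAF9B library; peak positions were used. The authors' fold change and p-value columns were not used. Depth is unknown: low FPKM values showed no whole-read steps.

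Ratios are log2 of KO over WT with no pseudocount; a value of 0 enters medians as infinite. Loci marked HIDATA were left out and 55 loci marked FAIL kept. Symbols came from RefSeq accessions (22766 of 23152 loci) or position on GENCODE vM1 (256), and the locus with the highest mean FPKM stood for a symbol. Lengths came from GENCODE vM1, from the transcript of the gene or position with ends nearest to those of the locus, the longest on ties. It need not be the isoform measured. The trend came from local regression (statsmodels 0.14.6, fraction 0.3), tested on simulated data. Python 3.11.15, pandas and scipy were used.

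The members and the 43 gene lists were chosen with earlier results of these data known. Genes named are Taf9b and Taf9, genes the study names, the 10 largest falls and rises, the extreme and most abundant members of each list, Y-linked genes and Xist, and the 5 largest falls on short and rises on long transcripts; further list members were chosen after their values were seen. Some genes that this rule names are not reported here. Alternatives were other thresholds, filters, 1 FPKM added, centering, and removal of the length trend.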

Additional observations from a re-analysis of the deposited data

Results flagged for a closer look

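Taf9b had opposite directions in the spinal column and in the EB libraries of day 6, with 1 library per genotype in each. Its log2 ratio of KO over WT was -1.01 in the spinal column (6.65 and 3.31 FPKM) and 1.55 in EB (1.37 and 4.01 FPKM). The difference between them was not tested, since neither has replicates. The labels of the EB libraries are given here as deposited.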

How the results depend on the processing

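The count of loci lower past 2-fold (1212) became 566 with 1 FPKM added to both values, 646 above 5 FPKM, 2737 with no filter on low values, 2733 at 1.5-fold and 126 at 4-fold. The count of loci higher past 2-fold (1289) became 859, 792, 2604, 3137 and 339 under the same settings, 825 above 1 FPKM in both libraries and 658 with the length trend removed; lower loci under the last were 835. The neuronal median of -1.20 became -0.97 with 1 FPKM added, -0.87 with the trend removed and -0.89 against loci of like length. The epidermis median of 6.02 became 3.58 with 1 FPKM added. The rho with length of -0.58 became -0.64 above 5 FPKM. Of 252 values for 42 other lists under 6 alternatives, 235 stayed within the spread of their members' median, 15 moved beyond it and 2 turned direction, both above 1 FPKM in both libraries: the hair follicle median became -0.51 and the melanocyte median -0.31, since that filter drops the genes near 0 in WT. No paired analysis was possible because there is 1 library per genotype. With unknown depth and no replicates, neither counting error nor variation between animals can be set against any ratio, and genes near 1 FPKM are the least certain.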
